A study of Homo sapiens with 6 samples.

Results

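Unlocalised scaffolds are pieces of the human assembly that are tied to a chromosome without a known position on it, and unplaced scaffolds are tied to no chromosome. AcNEIL1 peaks on these sequences were taken as the rows of the deposited hg38 peak lists whose sequence name contains _random or begins with chrUn. The rule used names only and no measured value. It found 364 peaks of 149862 in all, with 105, 143 and 116 peaks in replicates 1, 2 and 3.

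The lists came from chromatin immunoprecipitation and sequencing (ChIP-seq) with a rabbit antibody made for the study against acetylated NEIL1, in HCT116, an established human colorectal carcinoma line. Exponentially growing cells, for which the labels name no treatment, gave 3 AcNEIL1 ChIP libraries and 3 input libraries, which are sheared chromatin without immunoprecipitation. Each ChIP library was called against the input of the same number. The ChIP libraries held from 28814429 to 35222701 tags and the inputs from 32877739 to 37772127 after the duplicate filter. The labels do not say that the replicates came from separate cultures, so their spread may be technical. No IgG library and no library without NEIL1 was analysed here, so a peak is signal of this antibody over input.

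Base excision repair of oxidised DNA begins when a glycosylase such as NEIL1 cuts the damaged base from its sugar, and acetylation modifies this protein after translation. The scaffolds hold sequence that is hard to place, such as segmental duplications, satellite repeats and ribosomal DNA. Ribosomal DNA (rDNA) is a tandem array in which a transcribed 45S unit, the precursor of the 18S, 5.8S and 28S ribosomal RNAs, alternates with a long intergenic spacer. RNA polymerase I transcribes the 45S unit in the nucleolus. Cells carry many more rDNA copies than the assembly shows, and the copies are nearly identical, so reads from any of them can be placed on those shown.

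The scaffolds made up a small and even share of each list. Their part was 0.263%, 0.237% and 0.233% for replicates 1, 2 and 3, on average 0.245% ± 0.0162 (SD, n = 3). The number of scaffold peaks followed the length of the list, which was 39898, 60233 and 49731 peaks. The peaks covered 78.1, 146 and 86.3 kb of scaffold sequence.

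Peaks lay on 25 scaffolds, of which 11 were unlocalised and 14 unplaced. Of these, 13 carried peaks in every replicate, none in exactly 2 replicates, and 12 in 1 replicate. Replicate 2 alone accounted for 10 of the 12 with 11 peaks, and replicate 3 alone for the other 2 with 2 peaks. Replicate 1 had no scaffold of its own.

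The scaffold with the most peaks was chr11_KI270721v1_random, tied to chromosome 11, with 34, 41 and 31 peaks in replicates 1, 2 and 3. It was followed by chr1_KI270714v1_random with 11, 13 and 14 peaks and by chr22_KI270734v1_random with 9, 15 and 9 peaks. The rDNA scaffold chr22_KI270733v1_random had 9, 9 and 11 peaks, and the other rDNA scaffold, chrUn_GL000220v1, had 9 in each. The scaffold chr17_GL000205v2_random had 9, 11 and 6 peaks, and chr1_KI270713v1_random had 5, 7 and 11. The remaining 6 scaffolds with peaks in every replicate had 1 to 8 peaks a list. Across the 25 scaffolds the counts of the replicates went together, with Pearson's r of 0.98, 0.97 and 0.94 for replicates 1 and 2, 1 and 3, and 2 and 3. That r describes 25 scaffolds of unequal length that share 3 libraries, and it compares counts and not positions. On chr22_KI270731v1_random, with 2, 8 and 3 peaks, no place had a peak in all 3 replicates.

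**Figure D1:**
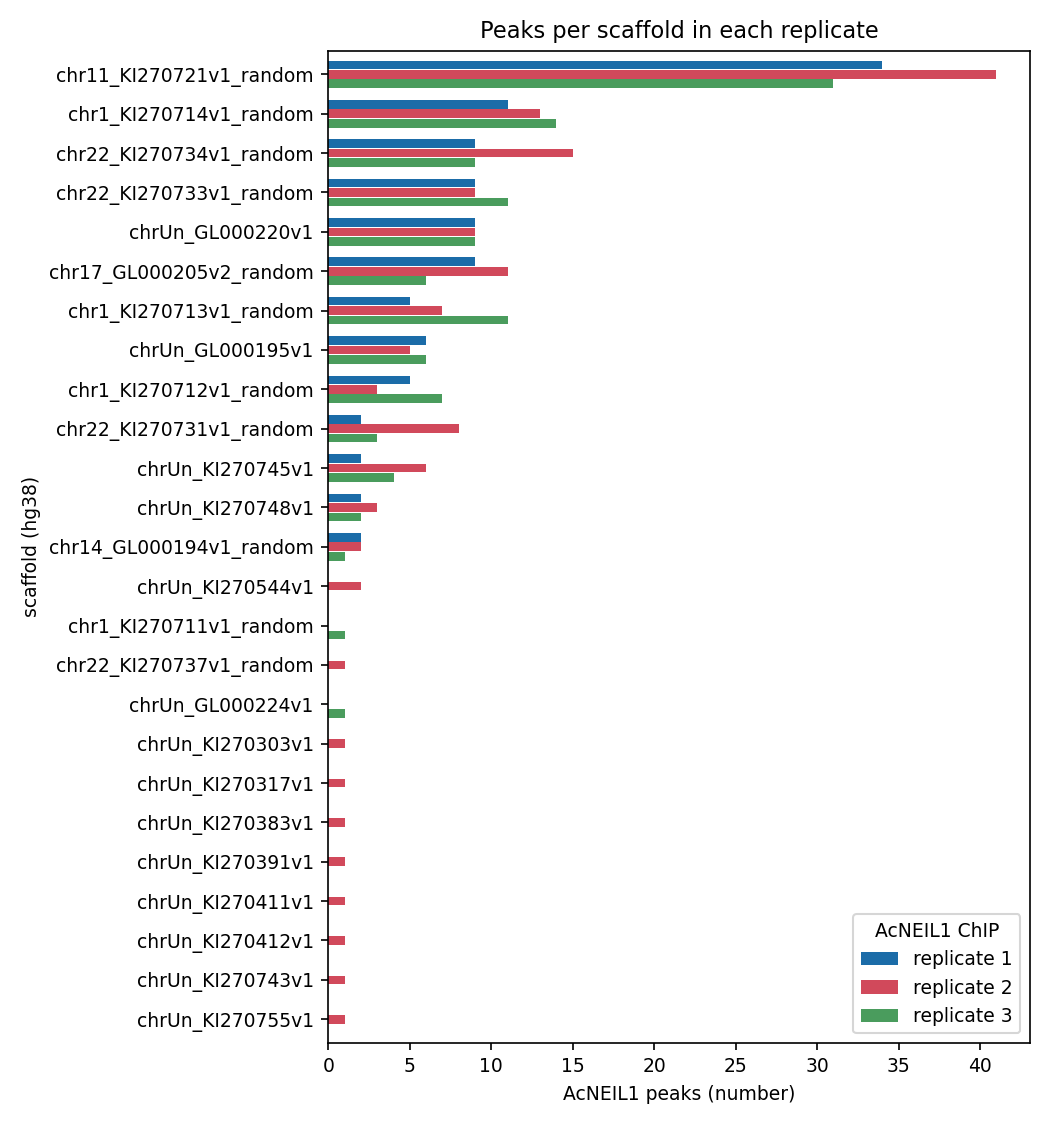
Number of AcNEIL1 peaks per scaffold (horizontal axis) for the 25 scaffolds listed down the page, with 1 bar per replicate. The 34, 41 and 31 peaks of chr11_KI270721v1_random stand apart, and 10 scaffolds have peaks in replicate 2 alone.

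The height of a peak is its pileup, the number of extended tags over the summit. The fold enrichment is the authors' ratio of pileup plus 1 to local background plus 1, from which that background was recovered. The median pileup of scaffold peaks was 23, 24 and 22.9 tags in replicates 1, 2 and 3, against 20, 21 and 19.1 tags for peaks on chromosomes 1 to 22 and X. It was higher on the scaffolds in 3 of 3 lists, by 3.27 tags on average, and the groups did not overlap. The exact two-sided permutation test over the 3 library medians of each kind gave p = 0.1, the smallest that 3 against 3 allows, so this design cannot reach 0.05. Peaks of 1 library were not treated as replicates.

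The size of the height difference depended on which scaffolds were counted. Without the 2 rDNA scaffolds the median pileup averaged 21 ± 0.98 tags on scaffolds and 20.0 ± 0.96 tags on chromosomes (SD, n = 3 each), and the exact permutation p was 0.3. The median local background was 5.83, 6.10 and 5.8 tags on the scaffolds, against 4.94, 5.34 and 4.48 tags on the chromosomes (exact permutation p = 0.1). Without rDNA it averaged 5.04 ± 0.502 tags on scaffolds and 4.92 ± 0.43 on chromosomes (exact permutation p = 0.8, n = 3 each). Without chr11_KI270721v1_random, whose peaks were low, the differences were larger, at 10.2 tags in pileup and 3.46 tags in background (exact permutation p = 0.1 for each).

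The median fold did not stand apart. It was 3.24, 3.42 and 3.41 on the scaffolds, against 3.42, 3.40 and 3.61 on the chromosomes. The mean difference was −0.118, with the scaffolds higher in 1 of 3 lists and an exact permutation p of 0.4. Without rDNA the difference was 0.0558, of the other sign (exact permutation p = 0.8). Without chr11_KI270721v1_random it was −0.373 (exact permutation p = 0.1). Scaffold peaks had median widths of 448, 499 and 447.5 bp, against 401, 478 and 384 bp on the chromosomes. They were wider in 3 of 3 lists, but the ranges overlapped between the replicates (exact permutation p = 0.3).

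A larger share of scaffold peaks sat on the lowest background the caller uses, the genome-wide mean, but most of those peaks were on chr11_KI270721v1_random. The share within 5% of that floor averaged 22.6% ± 6.28 for scaffold peaks and 10.1% ± 5.34 for chromosome peaks (SD, n = 3 each; exact permutation p = 0.1, the smallest possible). The floor was 3.17, 3.14 and 3.10 tags in replicates 1, 2 and 3. Of the 27, 22 and 31 scaffold peaks at the floor in replicates 1, 2 and 3, chr11_KI270721v1_random held 21, 14 and 22. The share at the floor among its own peaks averaged 55.6% ± 19.2 (SD, n = 3). The comparison was not repeated without this scaffold, so it does not show a raised share on the others.

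**Figure D2:**
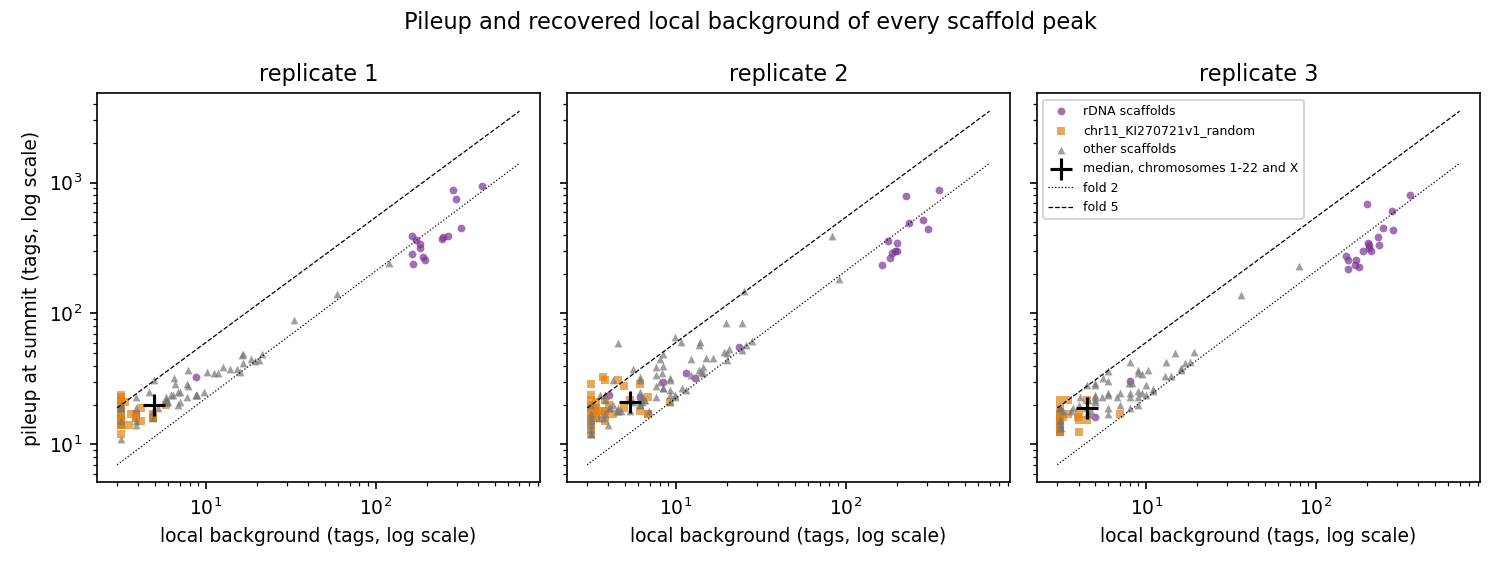
Pileup at the summit (vertical) against recovered local background (horizontal), both in tags on log axes, for every scaffold peak in 1 panel per replicate. Colours mark the rDNA scaffolds, chr11_KI270721v1_random and the others, the cross is the median of chromosome peaks, and the lines are folds of 2 and 5. Most rDNA peaks lie at the upper right, with a median background of 190 ± 9.3 tags, and many peaks of chr11_KI270721v1_random lie at the floor near 3 tags.

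Peaks of the 3 lists were merged into regions where they overlapped by at least 1 bp. On the scaffolds this left 187 regions. All 3 replicates had a peak in 38 of them (20.3%), against 13.2% of the 85534 merged regions on chromosomes 1 to 22 and X. A further 37 (19.8%) had a peak in 2 replicates and 112 (59.9%) in 1, against 68.3% in 1 on the chromosomes. A region can hold several peaks of a replicate, and its pileup, background, fold and summit there are those of its tallest peak unless stated otherwise. Regions of 1 scaffold are neighbours and are not independent, and the 2 shares were not tested against each other. The regions in all 3 replicates had a median width of 1586 bp, against 378.5 bp for those in 1. A merged region spans all its overlapping peaks, so regions with peaks of all 3 lists are wider in part by construction.

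Counted per peak, 45.7%, 28.7% and 42.2% of scaffold peaks in replicates 1, 2 and 3 overlapped a peak in both other lists, against 41%, 22.1% and 32.4% of chromosome peaks. The share was higher on the scaffolds in 3 of 3 lists, but the ranges overlapped (difference 7.04 percentage points, exact permutation p = 0.4). Without rDNA the difference was 2.99 percentage points. The rDNA scaffolds had 9 of 25 regions in all 3 replicates (36.0%), and the other scaffolds had 29 of 162 (17.9%).

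Over the 38 shared regions the pileups were more alike between replicates than the folds. The fold compared here was the highest of any peak in the region. Pearson's r of log2 pileup was 0.98, 0.99 and 0.98 for replicates 1 and 2, 1 and 3, and 2 and 3, and that of log2 fold was 0.70, 0.70 and 0.84. In the 29 regions off rDNA it was 0.91, 0.93 and 0.93 for pileup and 0.32, 0.23 and 0.53 for fold. These values describe regions that share libraries and depth and span a wide range of pileup, and they carry no test.

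The 2 rDNA scaffolds held the tallest scaffold peaks. They had 18, 18 and 20 peaks in replicates 1, 2 and 3, which is 17.1%, 12.6% and 17.2% of the scaffold peaks. Those peaks covered 34.1, 38.5 and 34.6 kb, or 43.6%, 26.4% and 40.1% of the scaffold sequence under peaks. Of the 10 highest scaffold pileups, 10, 9 and 10 lay on these scaffolds. Their median pileup was 354, 294 and 309 tags, a mean of 319 ± 31.0 (SD, n = 3), while their median fold was only 1.80, 2.06 and 1.63, over a median background of 190 ± 9.3 tags.

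Positions on these scaffolds are given against the start of the 45S unit in RefSeq's table of genes for GRCh38.p14, which shares the build of the peaks. That table gives RNA45SN4 for chromosome 22 and RNA45SN5 for no chromosome, without naming a scaffold. They were taken to lie on chr22_KI270733v1_random (122273 to 135645) and chrUn_GL000220v1 (105424 to 118780), the scaffolds known to carry rDNA. On chrUn_GL000220v1 the gene for 18S, RNA18SN5, spans 109078 to 110946, and that for 28S, RNA28SN5, spans 113348 to 118417. Each 45S unit is 13.4 kb long. A later 18S copy, RNA18SP3 or RNA18SP4, begins 44.0 kb after the first on chrUn_GL000220v1 and 45.1 kb after it on chr22_KI270733v1_random. Other genes of the scaffolds could not be assigned to one by this table and were not analysed here.

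The AcNEIL1 peaks of the rDNA unit lay in the intergenic spacer and not over the 45S unit. Of 42 peaks between 4 kb before and 40 kb after the 45S start on the 2 scaffolds, 0 overlapped the 45S unit, which allows a share of up to 7.14%. With the units RNA45SN1, RNA45SN2 and RNA45SN3 on chromosome 21 added, it was 0 of 103 peaks, which allows up to 2.91%. These limits cover counting error only and treat every peak as an independent trial. Peaks of neighbouring units and of different replicates are not independent, so neither limit is a true bound. Adding units of nearly identical sequence does not tighten it. A region with no peak is one where the ChIP pileup did not pass the caller's cutoff over the local background, and the pileup outside peaks was not analysed here.

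The block of spacer peaks began at nearly the same distance in every replicate. On chrUn_GL000220v1 the first spacer peak started 4.25, 3.61 and 3.66 kb after the end of the 45S unit in replicates 1, 2 and 3. On chr22_KI270733v1_random it started 4.42, 4.82 and 4.32 kb after that end. On the chromosome 21 units the same distance was 4.39 to 5.71 kb. From 18 to 34 kb after the 45S start, peaks covered 90.6%, 94.6% and 89.5% of chrUn_GL000220v1 and 90.0%, 93.5% and 90.8% of chr22_KI270733v1_random, against 86.0% to 97.3% in the chromosome 21 units.

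**Figure D3:**
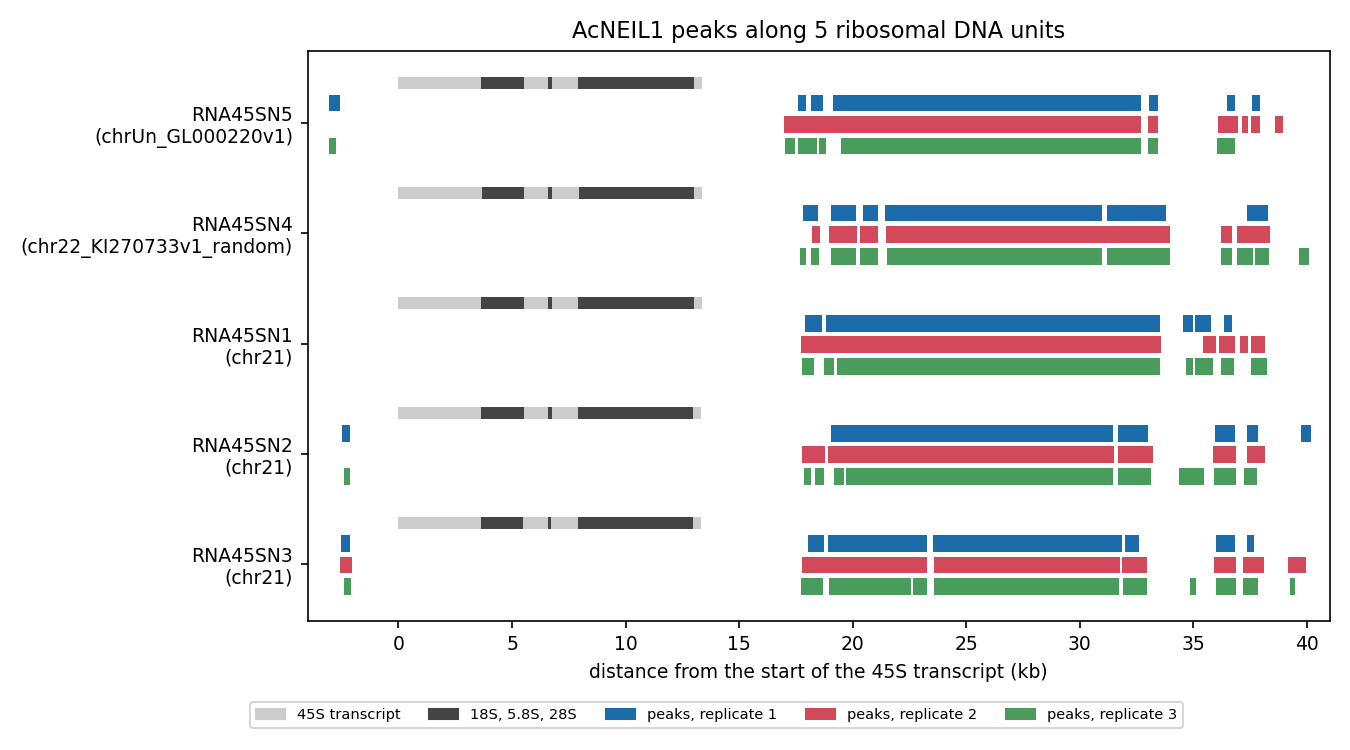
AcNEIL1 peaks as bars against distance from the start of the 45S unit (kb) for the rDNA units of the scaffolds and of chromosome 21, with 1 row per replicate and the 45S unit in light grey with its rRNA genes in dark grey. The spacer bars start 3.61 to 5.71 kb after the 45S end, some rows have a short bar before the 45S start, and no bar lies over the 45S unit.

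On chrUn_GL000220v1 the main region, chrUn_GL000220v1:122388-138129, held 3, 1 and 4 peaks in replicates 1, 2 and 3, the widest of them 13582, 15737 and 13167 bp. The pileup of that peak was 946, 872 and 802.42 tags, over a local background of 419, 351 and 359 tags. The fold was 2.25, 2.48 and 2.23, a mean of 2.32 ± 0.139 (SD, n = 3). By pileup this peak ranked 3, 3 and 2 in the whole lists, and by −log10 p it ranked 4, 8 and 5.

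The main region of the other unit, chr22_KI270733v1_random:143697-156255, had a lower pileup and a higher fold. Its pileup was 881, 784 and 686.02 tags over a background of 284, 227 and 200 tags in replicates 1, 2 and 3. The fold was 3.10, 3.45 and 3.42, a mean of 3.32 ± 0.194 (SD, n = 3), above all 3 values of the chrUn_GL000220v1 region. Its −log10 p was 177, 183 and 158, the highest of all peaks in every list. The widest peak there measured 9566, 12535 and 9474 bp. In replicates 1 and 3 a second peak followed it, at 153459 to 156050 with 747 tags and a fold of 2.51 and at 153461 to 156233 with 601.1 tags and a fold of 2.15, where replicate 2 had 1 continuous peak.

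The duplicate filter bounds these pileups. If the 2 tags kept per position apply to each strand, the pileup can reach at most 1072, 1176 and 950.3 tags in replicates 1, 2 and 3. The chrUn_GL000220v1 peak stood at 88.2%, 74.1% and 84.4% of that bound and the chr22_KI270733v1_random peak at 82.2%, 66.7% and 72.2%. The highest pileup of each list, in a chromosome 21 rDNA unit, stood at 98.5%, 94.4% and 97.9%. The same filter applied to the inputs, and its part in the folds on rDNA was not tested.

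Some of the smaller spacer peaks recurred at the same places, and others did not. The region chrUn_GL000220v1:141466-142390 had pileups of 453, 514 and 430.31 tags and a mean fold of 1.58 ± 0.185 (SD, n = 3), with the 3 summits within 11 bp. The region chrUn_GL000220v1:138439-138877 had 314, 289 and 347.30 tags, with summits within 10 bp. Further regions of this scaffold were not called in every replicate. The region 142940 to 143374 was called in replicates 1 and 2, with 237 and 264 tags. Those at 142540 to 142844 and 144025 to 144356 were called in replicate 2 alone, with 299 and 234 tags. The region 145222 to 145650 was called in replicate 3 alone, with 233.76 tags, and 146373 to 146822 in replicate 1 alone, with 272 tags. On the chromosome 22 scaffold, the regions at 141217 to 142470, 142588 to 143406, 159171 to 160653 and 139966 to 140835 were called in every replicate. The tallest peaks of these 4 regions had pileups from 256.66 to 489 tags and folds from 1.55 to 2.35. Replicate 3 had a lower peak in a pair of them, with 227.08 tags and a fold of 1.27 and with 255.71 tags and a fold of 1.48. A peak at 158478 to 158973 in replicate 2, with 442 tags and a fold of 1.45, had a counterpart at 158488 to 158952 in replicate 3, with 453.21 tags and a fold of 1.82, and none in replicate 1. Replicate 3 alone had a peak at 161907 to 162363, with 333.94 tags and a fold of 1.43. Beyond the 40 kb window, replicate 1 had a peak at 164419 to 165093 with 392 tags and a fold of 1.48.

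A weaker peak lay just before the 45S unit in some replicates. On chrUn_GL000220v1 it spanned 3.05 to 2.58 kb before the 45S start in replicate 1, with 257 tags and a fold of 1.32, and 3.08 to 2.75 kb before it in replicate 3, with 220.40 tags and a fold of 1.43. Replicate 2 had none there, and chr22_KI270733v1_random had none in any replicate. In the chromosome 21 units a peak before the 45S start was called in 5 of 9 combinations of unit and replicate. Those peaks lay closer to the start, between 2.59 and 2.04 kb before it.

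The layouts of the 5 units resembled each other. Within a replicate, 81.7% to 90.8% of the length under peaks in one scaffold unit was also under peaks, at the same distance, in the other, and 81.7% to 95.0% was shared between a scaffold unit and a chromosome 21 unit. In replicate 2 the tallest peak of chrUn_GL000220v1 and that of RNA45SN1 on chromosome 21 had the same pileup of 872 tags and the same fold of 2.48. How reads that match several units were placed is not given in the sources used here, so peaks of different units are not independent observations, and no unit can be told apart from its copies. Outside the unit, chr22_KI270733v1_random:26998-27681 had a peak in all replicates with 33, 30 and 30.53 tags, far below the spacer peaks on the same scaffold, and folds of 3.49, 3.30 and 3.50.

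The scaffold chr11_KI270721v1_random was dense in modest peaks on a low background. Its median pileup was 16, 18 and 15.3 tags in replicates 1, 2 and 3, and its median fold was 3.84, 4.17 and 3.74, a mean of 3.91 ± 0.227 (SD, n = 3). The median background was 3.25 ± 0.201 tags, and 61.8%, 34.1% and 71.0% of its peaks were within 5% of the floor. All its peaks lay in the first 100 kb, where they covered 18.5, 42.5 and 16.0 kb. The length of the scaffold was not analysed here, so this does not show that the peaks gather at 1 end of it. In bins of 100 kb on chromosomes 1 to 22 and X that held a peak, the median was 3, 4 and 4 peaks a bin. As many peaks as on this scaffold were found in 1.10%, 0.684% and 2.53% of those bins, so such density was uncommon but not confined to it, and the densest bins held 60, 70 and 64 peaks.

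Its 42 merged regions divided into 10 shared by every replicate, 13 found in 2 and 19 in 1. The widest of the 10, chr11_KI270721v1_random:80154-91356, had pileups of 22, 33 and 21.94 tags. The folds were 5.52 and 7.20 in replicates 1 and 2, and in replicate 3 the height of 21.94 tags was reached by a pair of peaks with folds of 4.19 and 5.11. In replicate 2 this stretch included peaks at 80154 to 82351 with a fold of 7.25 and at 82429 to 89523, 7095 bp wide, with a fold of 7.20. The region 49795 to 52888 had 24, 24 and 19.08 tags and a mean fold of 5.65 ± 0.647 (SD, n = 3). The region 66913 to 69626 had 16, 31 and 21.94 tags. Its folds were 2.9, 5.74 and 5.60, so replicate 1 was low there. The other 7 regions had folds between 2.9 and 6.65. Among them, 44459 to 46881 had a fold of 5.76 in replicate 1 and of 4.22 and 2.97 in replicates 2 and 3, and 70353 to 73423 had folds of 5.52, 6.65 and 3.74.

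**Figure D4:**
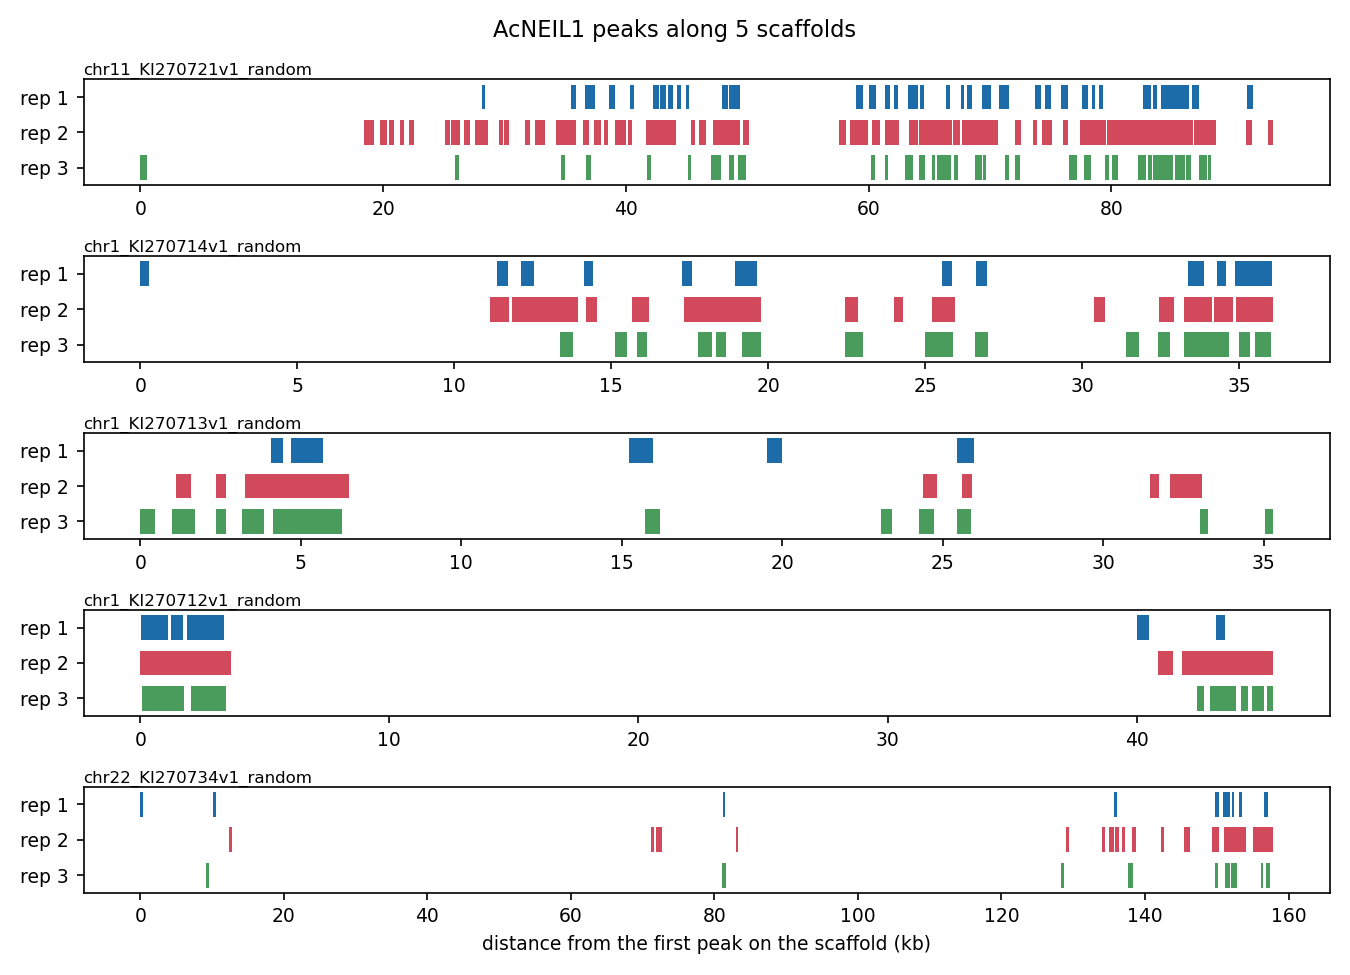
AcNEIL1 peaks as bars along 5 scaffolds, by distance from the first peak on the scaffold (kb, a scale of its own per panel), with 1 row per replicate. On chr11_KI270721v1_random replicate 2 covers the most sequence, 42.5 kb against 18.5 and 16.0 kb in replicates 1 and 3.

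Of the scaffolds tied to chromosome 1, chr1_KI270712v1_random had the tallest peak off rDNA that all replicates shared. The region chr1_KI270712v1_random:56023-59672 had pileups of 241, 392 and 230.90 tags in replicates 1, 2 and 3, over backgrounds of 120, 82.4 and 79.0 tags. Its folds were 1.99, 4.71 and 2.9, with replicate 2 highest in pileup and fold, and the 3 summits lay within 51 bp.

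The remaining shared regions were closer to the usual height. The region chr1_KI270713v1_random:3546-6861 had 49, 66 and 42.94 tags and folds of 2.86, 6.14 and 3.14, with replicate 2 the highest. On chr1_KI270714v1_random the region 22776 to 25312 had 37, 45 and 42.94 tags and folds of 4.32, 5.07 and 4.88, and the region 38762 to 40320 had a mean fold of 4.65 ± 0.672 (SD, n = 3). A further region of that scaffold, 30540 to 31476, had 28, 57 and 32.44 tags, with replicate 2 again the highest. The regions 40408 to 41611 and 17361 to 19464 had 32, 45 and 26.72 tags and 24, 39 and 29.58 tags. A peak at 27969 to 28563 in replicate 3 had 36.26 tags and a fold of 5.32, over one at 27969 to 28396 in replicate 2 with 32 tags and a fold of 3.25.

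The unplaced chrUn_GL000195v1 had the most even pileup off rDNA among the regions named, at 23995 to 25607, with 49, 50 and 50.57 tags (mean 49.9 ± 0.795, SD, n = 3). On chr17_GL000205v2_random, the shared region 80336 to 81987 had 43, 46 and 49.61 tags and the shared region 77986 to 79827 had 36, 46 and 42.94 tags. Its peaks stood on a raised background, with a median of 15.6 ± 1.0 tags, and had a median fold of 2.45 ± 0.127 (SD, n = 3). On chr14_GL000194v1_random the region 22624 to 23654 had 35, 54 and 37.21 tags. The region chr1_KI270712v1_random:97820-101496 had 23, 40 and 29.58 tags and folds of 3.52, 4.37 and 3.41.

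On chr22_KI270734v1_random the 3 shared regions were neighbours and were the last regions called. The length of this scaffold was not analysed here. The region 149963 to 150938 had 20, 19 and 23.85 tags, the region 151496 to 154725 had 20, 22 and 20.04 tags, and the region 155588 to 158442 had 19, 20 and 15.27 tags. Their mean folds were 4.19 ± 0.768, 3.89 ± 1.08 and 4.62 ± 0.577 (SD, n = 3 each), and their ranges over the replicates overlapped. On chrUn_KI270745v1 the regions 21480 to 24119 and 27473 to 28491 had folds of 2.9, 5.90 and 3.69 and of 2.74, 6.11 and 5.40, with replicate 1 lowest in each. The region chrUn_KI270748v1:8962-9580 had 23, 20 and 19.08 tags and folds of 4.89, 2.96 and 4.90, with replicate 2 lowest.

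Scaffolds with a peak in a single replicate came mostly from replicate 2. On 7 unplaced scaffolds seen in replicate 2 alone, all 8 peaks lay within the first 2 kb, between positions 216 and 1596. The lengths of these scaffolds were not analysed here, so these positions do not show a preference for the scaffold start. Their pileups were 60 to 184 tags, with a median of 73, and their folds 2.00 to 10.9, with a median of 4.12, over backgrounds of 4.58 to 91.5 tags. Replicates 1 and 3 had no called peak on these scaffolds, although the pileups in replicate 2 were well above its scaffold median of 24 tags.

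The steepest was chrUn_KI270383v1:761-1596, with 60 tags and a fold of 10.9, which ranked 4 by fold among all 60233 peaks of replicate 2. On chrUn_KI270391v1 a peak at 334 to 881 had 148 tags and a fold of 5.69, and on chrUn_KI270317v1 one at 1203 to 1589 had 61 tags and a fold of 5.31. The tallest, on chrUn_KI270303v1 at 1272 to 1575, had 184 tags but a fold of only 2.00. The 3 other scaffolds of replicate 2 alone, chr22_KI270737v1_random, chrUn_KI270743v1 and chrUn_KI270755v1, had 1 peak each, with 24, 49 and 12 tags. In replicate 3 alone, chr1_KI270711v1_random and chrUn_GL000224v1 had 1 peak each, with 25.76 and 18.13 tags and folds of 2.23 and 4.15.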

How the data were processed

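The 3 AcNEIL1 peak lists were called per replicate, without pooling, with MACS 2.1.1.20160309 against the input of the same number, per the file headers, at a q-value cutoff of 0.05 with the larger library scaled down and at most 2 duplicate tags kept. Coordinates are 1-based in hg38. Bowtie2 and the other tools listed in the submitters' processing notes have no stated role or version in the sources used here, so the treatment of reads with several matches is not given. The deposited pileup is a signal in extended tags (268, 294 and 249 bp) at the summit. The caller's Poisson p and q were deposited as −log10 values. The deposited fold is the authors' ratio of pileup to local background.

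The local background was recovered as (pileup + 1)/fold − 1. Pileups were not rescaled across libraries, and each was used within its list. Members were selected by sequence name. Library medians were compared with exact two-sided permutation tests that went through every split of the library values (numpy 2.4.6). Replicate numbers pair a list with its own input and give a scaffold and a chromosome value of the same library, which a paired test used as an alternative. Merging and overlap were tested on simulated data.

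The members, lists and tests were chosen with earlier results of these data known. Because over 30 regions had a peak in all replicates, regions named were the 20 with the highest mean rank of pileup. Named too were the 5 peaks highest in pileup and the 5 highest in fold per replicate, and the rDNA peaks found in all replicates. The shared regions of chr11_KI270721v1_random, chr22_KI270734v1_random, chrUn_KI270745v1 and chrUn_KI270748v1, the single-replicate scaffolds and chr22_KI270733v1_random:26998-27681 were chosen after their values were seen. So were chr22_KI270731v1_random and some rDNA spacer regions not called in every replicate. No scaffold sequence was used here.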

Additional observations from a re-analysis of the deposited data

How the results depend on the processing

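The number of scaffold peaks, a mean of 121 per list, fell to 58.7 at −log10 q of 5 or more and to 33.3 at a fold of 4 or more. Their share of the list, 0.245%, became 0.355% and 0.286% at these thresholds, 0.206% without rDNA and 0.173% without chr11_KI270721v1_random. Regions with a peak in all replicates, 38, numbered 19 at the q threshold, 4 at the fold threshold, 10 with 50% reciprocal overlap and 19 with summits within 250 bp. The difference in median pileup between scaffolds and chromosomes turned to −2.47 tags and that in background to −0.871 tags at a fold of 4 or more, where 0.667 peaks per list were left on the rDNA scaffolds, none of them in the rDNA unit, and 0% of their regions were in all replicates. The same differences were 8.0 and 2.55 tags at the q threshold, 10.2 and 3.46 tags without chr11_KI270721v1_random, 0.987 and 0.117 tags without rDNA and 56.1 and 30.0 tags with means in place of medians. The difference in width turned to −67.7 bp at the q threshold and −77.3 bp at the fold threshold, and was 26.3 bp without chr11_KI270721v1_random and 227 bp with means. The difference in sharing was 14.3 percentage points at the q threshold, 2.58 at the fold threshold and 2.99 without rDNA. It was 4.19 with reciprocal overlap and 7.73 with summits within 250 bp. For these last criteria the exact permutation p was 0.1 each, the smallest possible, against 0.4 with an overlap of 1 bp. The difference in fold turned to 0.0558 without rDNA, and was −0.441 at the q threshold and −0.373 without chr11_KI270721v1_random. The mean Pearson's r of log2 fold over shared regions, 0.75, was 0.36 without rDNA, an alternative chosen after seeing the data. The cause of these changes was not tested.

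Leaving out each replicate in turn gave 110 to 130 peaks per list, 0.235% to 0.25% of the list, differences of 3.0 to 3.41 tags in pileup, 34 to 55.2 bp in width, −0.189 to −0.0793 in fold and 0.822 to 1.1 tags in background, 18 to 19 rDNA peaks per list and 43.5% to 54.5% of rDNA regions shared by the lists left. Shared scaffold regions then numbered 50 to 55, since only 2 lists had to agree. With the replicate block, the exact paired sign-flip test gave p = 0.25, the smallest it allows, for pileup (3.27 tags), width (43.8 bp), background (0.988 tags) and sharing (7.04 percentage points), and p = 0.5 for fold (−0.118), so no call changed. Per scaffold, 11 of 25 counts stayed within 1.5 times at the q threshold and 7 of 25 at the fold threshold. With 3 libraries, no comparison could pass 0.05. The part of depth in the number of peaks called was not tested: the longest list, 60233 peaks in replicate 2, came from the ChIP library of lowest depth, 28814429 tags.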
